A study of Mus musculus with 2 samples.

Results

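The genes examined were 10 genes of brown fat heat production, out of 21938 protein-coding genes of the annotation. They were chosen by name, as genes known from brown adipocytes, by a rule that uses no measured value, but with earlier results of these data known. For each gene, the gene body and 50 kb on each side were searched for open chromatin in the adrenal gland. The tissue came from female B6CASTF1/J mice, the first-generation cross of C57BL/6J and CAST/EiJ, at 10 days of age. There was 1 group of 2 samples, numbered as biological replicates 1 and 2, and the label of each names 3 females. The labels give both samples 1 donor entry and no treatment or altered allele. With no second condition the comparisons were between replicates, between genes and between these genes and all other genes.

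Brown adipocytes burn fuel to make heat. Noradrenaline from sympathetic nerves acts on the beta-3 adrenergic receptor, cyclic AMP rises, stored fat is broken down, and the uncoupling protein UCP1 lets protons pass the inner mitochondrial membrane without making ATP. Brown fat lies next to the adrenal gland and the kidney in young mice. In a bulk tissue, fewer cells of a type and less open chromatin per cell cannot be told apart.

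The assay was DNase-seq, which sequences the ends that DNase I leaves where it can reach the DNA of isolated nuclei. The height of a peak is a signal that the authors scaled, and in each sample every height was a whole multiple of 1 step within 5% of the step. The shorter peak list, kept to a false discovery rate (FDR) of 0.001, held 98813 peaks in replicate 1, beside 339116 footprints and 51.5 Mb listed at an FDR under 0.05, and for replicate 2 these numbers were 55135, 241536 and 34.0 Mb. A footprint is a short protected stretch inside open chromatin. The replicates shared 48299 regions by at least 1 bp, and across them the log2 of replicate 1 height over replicate 2 height had a median of 0.73, so heights were ranked within a replicate and ratios were centred on that median. Of markers of the labelled tissue, 7 of 10 cortex genes and 5 of 10 chromaffin genes had a shared promoter peak. Over all protein-coding genes it was 63.6%, so without regard to CpG content these counts lie near the background. Of markers of other tissues it was 1 of 6 liver genes, 1 of 6 kidney genes and 3 of 12 skeletal muscle genes. Within deciles 1 to 5 of promoter CpG content (described below), 3547 of 10969 genes were open. There it was 6 of 9 cortex, 1 of 4 chromaffin, 1 of 6 liver, 0 of 5 kidney and 2 of 11 muscle genes.

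Sequences of 5 of the promoters are printed here because they show how unlike the starts of these genes are. Each is the part of a shared promoter region that lies upstream of an annotated start and outside all annotated exons, on build mm10 and on the gene's strand, 5′ to 3′. Capitals mark bases inside footprints of both replicates, and they show where the replicates placed protection, not which protein was bound.
Ucp1, chr8:83290181-83290347, plus strand: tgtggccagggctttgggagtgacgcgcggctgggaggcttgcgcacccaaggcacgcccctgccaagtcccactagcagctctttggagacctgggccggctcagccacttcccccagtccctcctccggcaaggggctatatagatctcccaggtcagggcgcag
Dio2, chr12:90739039-90739100, minus strand: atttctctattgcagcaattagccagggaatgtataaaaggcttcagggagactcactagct
Cox7a1, chr7:30184021-30184143, plus strand: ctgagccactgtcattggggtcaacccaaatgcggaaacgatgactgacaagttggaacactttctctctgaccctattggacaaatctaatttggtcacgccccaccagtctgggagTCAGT
Cox8b, chr7:140900447-140900507, minus strand: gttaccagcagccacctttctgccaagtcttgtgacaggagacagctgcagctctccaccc
Elovl3, chr19:46131721-46131896, plus strand: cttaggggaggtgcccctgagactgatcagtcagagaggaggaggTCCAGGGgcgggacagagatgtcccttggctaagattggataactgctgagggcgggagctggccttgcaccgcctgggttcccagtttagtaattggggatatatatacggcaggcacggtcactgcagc
The stretch of Ucp1 was the richest in G and C (66.5%) and held 8 CpG pairs. The stretches of Dio2 (41.9% G and C) and Cox8b (57.4%) held 0 CpG pairs, that of Cox7a1 held 3 (49.6%) and that of Elovl3 held 5 (57.95%). Footprints of both replicates covered 7 bases at Elovl3, 5 at Cox7a1 and 0 at Ucp1, Dio2 and Cox8b.

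All 10 thermogenic genes had an open promoter in both replicates, and most of these promoters were low. A shared region lay within 1 kb of an annotated start at 10 of 10 genes, against 63.6% of all protein-coding genes. In replicate 1 alone and in replicate 2 alone the count was also 10, against 67.5% and 64.5% of all genes, and in the longer lists it was 10, against 67.7%. Promoters rich in CpG are open in most tissues, so the background was also read by decile of CpG content (observed over expected within 500 bp of the most 5′ start). Of the 10 genes, 7 lay in deciles 3 to 5, where 46.6% of 6581 genes were open. The shares were 25.5% in decile 3 (Ppargc1a and Cox8b), 43.4% in decile 4 (Dio2, Adrb3 and Cox7a1) and 70.9% in decile 5 (Ucp1 and Elovl3). Cidea lay in decile 6 (88.1%), Ebf2 in decile 7 (93.8%) and Prdm16 in decile 10 (98.3%). Summed over the genes' own deciles these shares came to 6.03 open promoters of 10. With 1 start per gene, the most 5′ one, the count was 8, without Ppargc1a and Adrb3. In the 50% highest peaks of each replicate it was 7, without Dio2, Adrb3 and Elovl3. No share over all genes is given under either of these settings, so the counts of 8 and 7 have no background beside them.

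**Figure D1:**
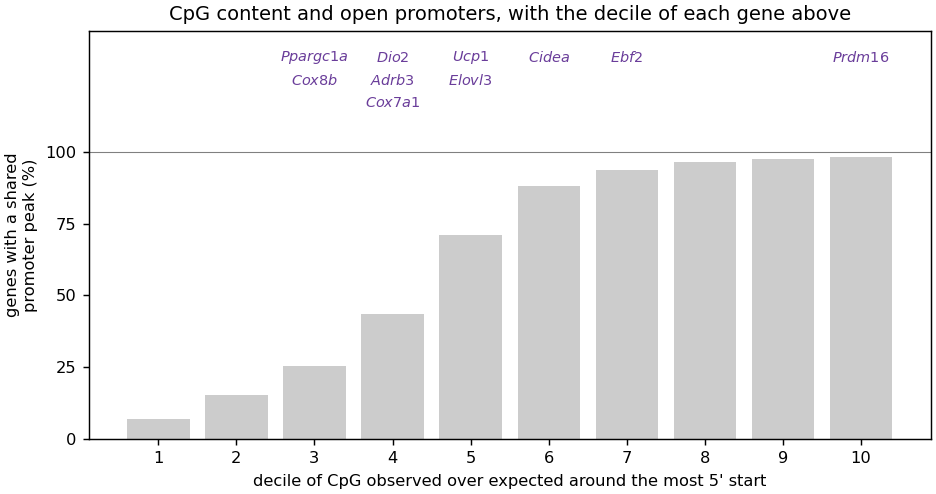
Bars give the percent of all protein-coding genes with a shared promoter peak in each decile of CpG content around the most 5′ start, and gene names above stand over their own decile. The bars climb from 6.75% in decile 1 over 25.5%, 43.4% and 70.9% in deciles 3 to 5, where 7 of the 10 thermogenic genes lie, to 96.4% and 97.4% in deciles 8 and 9 and 98.3% in decile 10.

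The heights at these promoters were below those of most open genes. Over the 10 genes the median of the highest peak that itself lay within 1 kb of a start was 2.26 in replicate 1 and 1.44 in replicate 2, against 5.62 and 3.07 over all genes with such a peak. Taken by shared region, as the values of single genes below are, the median was 2.39 and 1.44, because at Ppargc1a the replicate 1 peak of the higher region lay just outside the window. In replicate 1, 9 of the 10 genes lay under the median of all genes and 5 under the lower quartile of 2.41. In replicate 2, 8 lay under the median and 6 under the lower quartile of 1.71. Genes of CpG deciles 3 to 5 with a promoter peak had medians of 2.36 and 1.65, close to those of the thermogenic genes, and genes of deciles 6 to 10 had 6.85 and 3.48.

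The uncoupling protein gene Ucp1, whose product dissipates the proton gradient, had a region of 300 bp over its start at chr8:83290181-83290480. Its height was 2.58 in replicate 1 and 2.01 in replicate 2, or 386 and 325 steps. Relative to all shared regions it leaned towards replicate 2, with a centred log2 ratio of replicate 1 over replicate 2 of -0.38. Replicate 1 had 3 footprints in it and replicate 2 had 6, of which 2 overlapped. The listed FDR reached 7.3e-20 in replicate 1 and 1.4e-14 in replicate 2 within 1 kb of the start.

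Around Ucp1 the distal regions were low. It had 2 shared ones, or 1.85 per 100 kb against a median of 1.11 over all genes, one 29.7 kb upstream in an intron of Tbc1d9 (1.48 and 0.806) and one 9.0 kb downstream of the start (0.876 and 0.985). In rodents an enhancer a short way upstream of the gene drives its expression in brown fat. In that direction replicate 1 had a peak of 0.929 at chr8:83287841-83287993, 2.4 kb upstream of the start, and replicate 2 had none in the shorter list. In the longer lists (FDR of at most 0.05) the same place was shared, with heights of 0.929 and 0.682, and between 2 and 3 kb upstream 342 bases in replicate 1 and 211 in replicate 2 were listed at an FDR under 0.05. The sequence of the replicate 1 peak is printed, on build mm10 and the plus strand, because it is the upstream element nearest to the start, with bases in footprints of both replicates in capitals.
Ucp1 upstream element, chr8:83287841-83287993: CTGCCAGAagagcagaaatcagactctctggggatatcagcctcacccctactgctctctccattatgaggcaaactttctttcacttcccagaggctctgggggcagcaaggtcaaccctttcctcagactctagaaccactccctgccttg
It held 1 nuclear receptor half-site, AGGTCA, 2398 bp upstream of the start, and the promoter stretch above held another 15 bp upstream. Neither had a base that lay in footprints of both replicates at once. The element had 17 footprint bases in replicate 1 and 46 in replicate 2, and whether any of these covered the half-site is not reported. The letters AGGTCA occurred in 14.3% of all shared promoter regions and 19.2% of all shared distal ones, so a match is common. Further replicate 1 peaks at 4.8 kb (1.40) and 11.7 kb (1.11) upstream also entered the shared set only in the longer lists, with replicate 2 heights of 0.663 and 0.669.

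Cidea, which encodes a protein of lipid droplets that marks brown fat in mice, had a region over its start on chromosome 18 with heights of 3.12 and 1.87 and 4 overlapping footprints. A start of B430212C06Rik lay within 1 kb of the same region. Its centred ratio was 0.01, close to the median of all regions. Cidea had 5 shared distal regions, 4.03 per 100 kb, and the highest stood 26.3 kb downstream of the start between genes (4.55 and 1.91), at percentiles 95.3 and 88.8 of all shared distal regions.

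Among the regulators, Ebf2, a transcription factor that selects brown fat identity, had the highest promoter region of the 10 genes in both replicates, 8.40 and 3.53. That region lay at the start 1.3 kb downstream of the most 5′ one. The most 5′ start itself had 0.909 in replicate 1 and 0.954 in replicate 2, with Gm20675 starting within 1 kb. The downstream start was thus the higher one in both replicates.

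Ebf2 also had the second highest count of distal regions. It had 8, of which 5 lay inside the gene, and the 3 highest lay upstream. They stood at 44.3 kb (4.37 and 2.66), 44.8 kb (4.21 and 1.95) and 21.3 kb (4.11 and 2.23), the first 2 in introns of Gm30806. Among all shared distal regions they lay at percentiles 93.8 to 94.7 in replicate 1 and 89.4 to 95.7 in replicate 2. Its 5 regions inside the gene were lower, from 0.341 to 1.43 in replicate 1 and from 0.502 to 0.893 in replicate 2.

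Prdm16, a zinc finger co-regulator that keeps precursor cells on the brown fat path, had 3 shared promoter regions. The main start, near a start of Gm13111, had 1.54 and 1.20, a region 0.9 kb inside the gene had 1.44 and 1.33, and a region near an internal start 109.1 kb inside had 2.45 and 0.886. The order of the 3 thus differed between replicates, with the internal region highest in replicate 1 and lowest in replicate 2. The CpG-rich main promoter lay under the medians of genes of deciles 6 to 10, 6.85 and 3.48. The locus of 420.7 kb held 16 shared distal regions, the most of the 10 genes, and 11 of them lay in its own introns. One stood apart at chr4:154497061-154497300, 139.7 kb inside the gene, with 7.35 in replicate 1 and 2.71 in replicate 2, at percentiles 98.8 and 95.96 of all shared distal regions. The other 15 lay between 0.608 and 1.74 in replicate 1 and between 0.508 and 1.18 in replicate 2.

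Ppargc1a encodes PGC-1alpha, the co-activator that couples cyclic AMP to mitochondrial biogenesis. Its most 5′ start at 51567726 on chromosome 5 had no peak in the shorter list of either replicate. In replicate 1 only, the longer list held a peak of 0.495 centred 181 bp upstream, and 210 bases upstream were under an FDR of 0.05. Both shared regions lay at internal starts. The region over the start 13.9 kb inside had 1.18 and 0.930, and the one 15.0 kb inside had 2.32 and 1.56. The region 15.0 kb inside was counted as a promoter because its nearest annotated start was 991 bp away, and RefSeq starts lie beside it at 51553084 and 51553095. The region over the start held a cyclic AMP response element (CRE), TGACGTCA, 80 bp upstream of the nearest GENCODE start and outside the footprints of both replicates. A RefSeq start at 51554045 lies on its other side, so by that annotation the element is inside an exon. The letters occurred in 2.74% of all shared promoter regions. The element is printed with 10 bases on each side, on the plus strand of mm10, with the motif in capitals.
Ppargc1a CRE, chr5:51553988-51554015: cacaaactccTGACGTCActccaaggca

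The genes of hormone and nerve signalling had low promoters. Adrb3, the beta-3 adrenergic receptor of adipocytes, had no peak and 0 listed bases within 1 kb of its most 5′ start in either replicate. One of its shared regions lay over a start 19.8 kb inside (1.50 and 0.725). The other lay 23.1 kb inside (0.842 and 1.09), 714 bp from the nearest GENCODE start, with Gm45470 starting within 1 kb. RefSeq starts of Adrb3 lie at 27229588, 27230092 and 27230845 on chromosome 8. The closed start at 27250616 is not among them, so which start counts as the most 5′ one depends on the annotation. The 2 regions stood in opposite order in the 2 replicates. The highest region of the Adrb3 locus outside promoters of other genes was distal, 3.3 kb upstream of the most 5′ start (3.20 and 1.85, percentiles 88.1 and 87.8).

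Dio2 encodes the deiodinase that makes active thyroid hormone within brown adipocytes, and it had the lowest top promoter of the 10 genes in replicate 2. Its regions had 1.22 and 0.874, 463 bp upstream of the annotated start, and 0.374 and 0.372 downstream of it. Starts of Gm26512 lay within 1 kb of both. The higher of them spans the RefSeq start at 90739038 on chromosome 12, so its distance to the start depends on the annotation used. A CRE lay 92 bp upstream of that RefSeq start, 25 bp outside the shared region and without a footprint base in either replicate. The RefSeq promoter table (GRCm38.p6, windows of 300 bases) matched 6 of the 10 genes, and Dio2 was the 1 of these 6 whose window held a CRE, against 1.79% of 32851 windows. The stretch is printed on the minus strand of mm10 with the motif in capitals.
Dio2 CRE, chr12:90739116-90739143: tctttctcaaTGACGTCAagatctttag
Dio2 also had the fewest listed bases, 1347 per 100 kb in replicate 1 and 1170 in replicate 2, and 2 shared distal regions (1.33 and 1.18 in an exon of the gene, and 1.12 and 0.843 at 2.2 kb upstream).

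The respiratory chain and lipid genes spanned the range. Cox7a1, the heart and brown fat isoform of a cytochrome c oxidase subunit, had 5.49 and 3.20 over its start at chr7:30184021-30184280, the second highest promoter in both replicates. Cox8b, another muscle and brown fat isoform, had 1.18 and 1.25, one of 3 promoter regions of the 10 genes that were higher in replicate 2. So the subunit genes differed by 4.64-fold in replicate 1 and 2.57-fold in replicate 2. Cox8b had higher sites upstream of its promoter, at 8.3 kb (3.70 and 1.96) and 3.0 kb (2.87 and 2.60). Elovl3, a fatty acid elongase induced by cold in brown fat, had 2.07 and 0.905 at its start, and a single distal region in its own exon 3.6 kb downstream with 4.72 and 2.76. That region lay nearer to the start of Pitx3 than to its own. The distal region nearest to the start was higher than the promoter by 2.42-fold and 2.08-fold at Cox8b and by 2.28-fold and 3.05-fold at Elovl3.

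**Figure D2:**
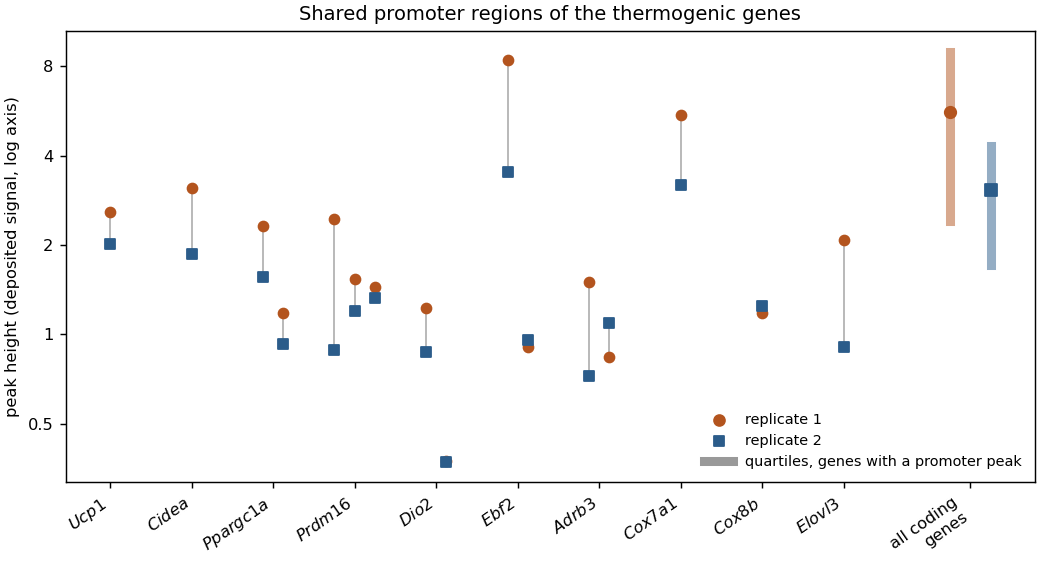
Each pair of points is 1 shared promoter region, with peak height (deposited signal, log axis) in replicate 1 (circle) and replicate 2 (square), and the bars at the right give the quartiles and median over all protein-coding genes with a promoter peak. Ebf2 (8.40 and 3.53) and Cox7a1 (5.49 and 3.20) are the only genes with a region above the all-gene median in a replicate, and Dio2 has the lowest region (0.374 and 0.372).

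Ranked by their highest promoter region, Ebf2 and Cox7a1 were first and second in both replicates. Cidea and Ucp1 followed and exchanged places 3 and 4 between replicates, and Prdm16 and Ppargc1a exchanged places 5 and 6. Adrb3 was at place 8 in both. Elovl3 (7 and 9), Dio2 (9 and 10) and Cox8b (10 and 7) filled the rest. Neighbours that exchanged places did not differ beyond the replicate spread. If each step were 1 sequenced tag, the counting error of these heights would run from 2.82% to 8.42%, which does not cover variation between animals.

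Distal regions at the thermogenic loci had a density within the range of the other gene lists. All 10 genes had at least 1 shared region more than 1 kb from every annotated start, against 73% of all protein-coding genes. The 10 loci held 45 such regions, from 1 to 16 per gene with a median of 2.5, against 2 over all genes. Per 100 kb of locus the median was 1.91 for the thermogenic genes and 1.11 for all genes, whose upper quartile was 2.54, and 9 of the 10 genes lay above the median of all genes. The other lists were above it too, from 1.17 in liver genes over 1.85 in muscle and 1.92 in general adipocyte genes to 2.57 in cortex genes, so the density was not particular to the thermogenic genes. Of the 45 regions, 25 lay in introns, 15 between genes and 5 in exons. A member of the group was the nearest coding gene by its start for 32 of them. The count depends on the peak list and on the replicate: the longer lists gave 75 regions and a median of 5.5 against 3, and peaks of replicate 1 alone gave a median of 8.

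Most of the distal regions were of ordinary height. Their medians were 1.35 and 0.973, against 1.497 and 0.874 over all 26622 shared distal regions. Above the upper quartile in both replicates (2.30 and 1.33) stood 10 of the 45. They lay at 6 genes, namely Cidea, Prdm16, Ebf2, Adrb3, Cox8b and Elovl3. The distal regions of Ucp1, Ppargc1a, Dio2 and Cox7a1 all lay under it in at least 1 replicate.

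**Figure D3:**
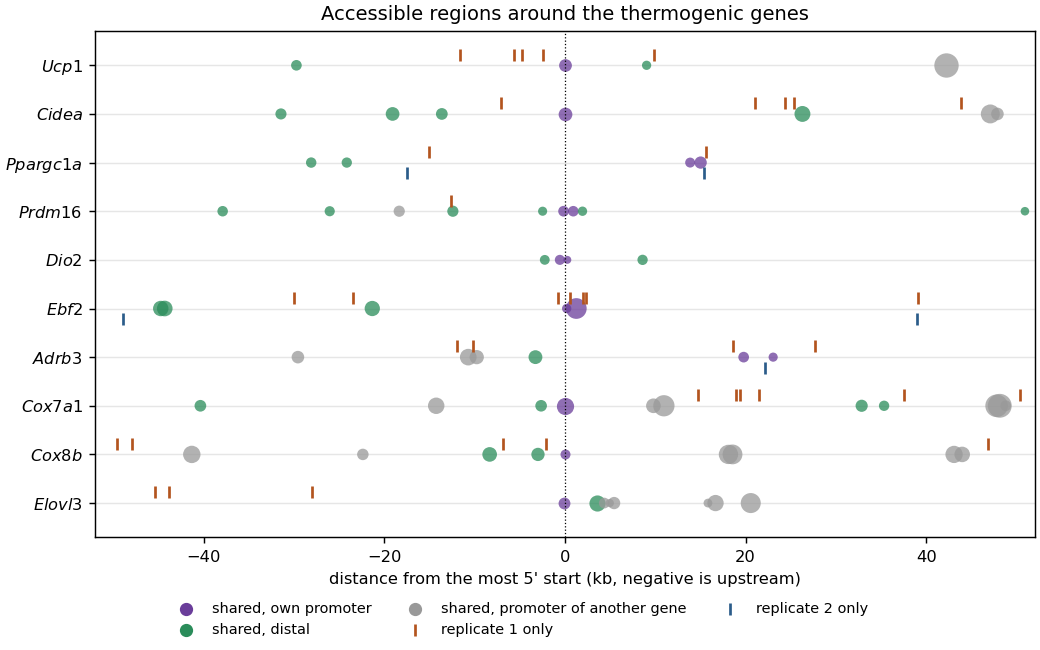
Shared regions (filled circles, area rising with the height in replicate 1) and peaks of 1 replicate only (ticks) are placed by distance in kb from the most 5′ start of each gene, within 50 kb. The map shows 66 shared regions, and 22 more, 13 of them at Prdm16, lie farther off inside long genes or past their ends.

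Beyond the shared regions, 62 of the 159 peaks of replicate 1 at these loci were found in replicate 1 only. Of the 99 of replicate 2, 6 were found in replicate 2 only. Over the genome replicate 1 had 98813 peaks and replicate 2 had 55135. The genome-wide share of peaks in 1 replicate only was not computed, so these counts are not read as a trait of the genes. Of the 62, 50 were distal, and 41 held a base listed at an FDR under 0.05 in replicate 2. Their median height was 0.789, below the 1.35 of the shared distal regions. Prdm16 had 15 and Ebf2 14 of them, and Ucp1, Cidea, Adrb3 and Cox8b had 5 each. Dio2 had 0 peaks in 1 replicate only. Bases listed at an FDR under 0.05 were counted over each whole locus, promoters of other genes included, of which the 10 loci held 27 shared regions. The median over the 10 genes was 5029 bases per 100 kb in replicate 1 and 3653 in replicate 2. Over all genes it was 3487 and 2455, with 8 of the 10 genes above in each replicate. The highest were Cox7a1 (8641 and 6482) and Cox8b (8093 and 6327). How much of this came from promoters of other genes was not tested. Within 1 kb of the most 5′ start the order was the other way, with 553 and 498 bases for the thermogenic genes and 723 and 702 for all genes.

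Most regions of the thermogenic genes were higher in replicate 1, as most regions of the genome were. Heights were higher in replicate 1 at 13 of 16 promoter regions and 41 of 45 distal ones. Higher in replicate 2 were 3 promoter regions (18.8%, against 8.08% of all shared promoter regions) and 4 distal ones (8.89%, against 6.09%). The centred log2 ratio had a median of -0.31 over the 16 promoter regions, from -1.11 at Adrb3 to 0.74 at Prdm16, with 10 of 16 below 0, against 47.1% of all promoter regions. Set against regions of the same height decile, the median was -0.26 and 12 of 16 lay below. When only the highest region of each gene was taken the median was 0.03, with 4 of 10 below 0, against 0.19 and 32.4% over all genes with an open promoter. With 1 sample per replicate number, no test was possible.

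**Figure D4:**
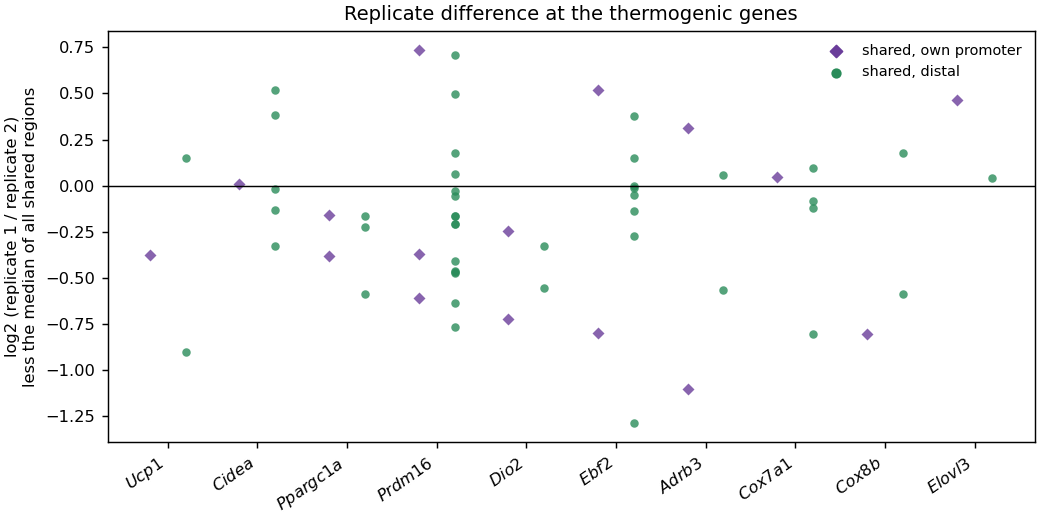
Each point is 1 shared region, placed by its log2 ratio of replicate 1 over replicate 2 less the median of all 48299 shared regions, with promoter regions as diamonds and distal regions as circles. Promoter regions run from -1.11 to 0.74 and distal ones from -1.29 to 0.71, and both kinds lie on both sides of 0 at Prdm16, Ebf2 and Adrb3.

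Regions with an overlapping footprint were about as frequent at these genes as among all shared regions. A footprint overlapping between the replicates was found in 15 of 16 promoter regions, against 80.9% of all shared promoter regions, and in 40 of 45 distal ones, against 85.6%. Together that was 90.2% of 61 regions (exact Clopper-Pearson 95% interval 79.8% to 96.3%, counting error only). The share over all shared regions, 83.5%, lies inside this interval. The interval takes regions of the same locus as independent, which they may not be. The exception among promoters was the most 5′ start of Ebf2. Counted by footprint, 34 of 78 of replicate 1 in the promoter regions overlapped one of the 79 of replicate 2. That is a lower share than the 54.3% over all shared promoter regions. In the distal regions it was 85 of 148, against 54.5%.

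Motifs of brown fat regulators were searched as exact letters on both strands, and a match is a description and not a bound site. The PPAR element (AGGTCA repeated with 1 base between), the thyroid receptor element (the same with 4 bases between), the ERR and SF-1 site TCAAGGTCA and the NFI palindrome (TTGGC and GCCAA with 5 bases between) had 0 matches in the 61 regions. Their shares in all shared promoter and distal regions were at most 0.913%, so 0 matches in 61 says little. The half-site AGGTCA, which is part of the first 3 of these, was in 2 of 16 promoter regions and 14 of 45 distal ones (12.5% and 31.1%), against 14.3% and 19.2% of all. The EBF palindrome (TCCC and GGGA with 2 bases between) was found in the Cidea promoter, 1 of 16 promoter regions against 2.03% of all, and in 3 of 45 distal regions, against 1.75% of all. The C/EBP palindrome TTGCNCAA was in 1 of 16 and 3 of 45, against 2.76% and 4.08%, and the AP-1 site TGANTCA in 0 of 16 and 5 of 45, against 5.90% and 11.8%. The CRE was in 1 of 16 and 0 of 45, against 2.74% and 0.518%. Leaving out the half-site, at least 1 of the other 8 motifs was found in 13 of the 61 regions, 21.3%, against 15.8% of all shared regions.

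The 3 distal EBF matches are printed since EBF2 is itself one of the genes, each with 10 bases on either side on the plus strand of mm10 and the match in capitals.
Ppargc1a, 24.1 kb upstream, chr5:51591789-51591818: tgctccaccaTCCCAGGGGAggacaactga
Prdm16, 37.8 kb upstream, chr4:154674705-154674734: cccaggctagTCCCAAGGGAgctgcgtcct
Ebf2, 124.5 kb inside, chr14:67357793-67357822: ttgtgtgtctTCCCGAGGGAgtggtggctt
The match near Ppargc1a had 7 of its 10 bases inside footprints of both replicates. The match near Prdm16 was covered whole in replicate 1 and not at all in replicate 2, and that inside Ebf2 had 1 base in replicate 1 and 7 in replicate 2. The heights of the 3 regions were 1.32 and 0.893 near Ppargc1a, 1.42 and 1.18 near Prdm16, and 1.43 and 0.893 inside Ebf2.

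Other brown fat genes, in lists written with earlier results of these data known, were mostly open and higher than the 10 genes. Of 20 regulators and co-factors 18 had a shared promoter peak, with medians of 5.24 and 3.19. The highest in replicate 1 were Esrra, an orphan receptor of mitochondrial genes (17.2 and 5.97), Nfia (13.5 and 5.70), Ppara (12.8 and 5.44) and Ehmt1 (10.4 and 5.08). The highest in replicate 2 was Cebpb (9.71 and 6.81), and the precursor factors Zic1 and Tbx15 had none. All 12 genes of adrenergic and cyclic AMP signalling had one, with medians of 7.02 and 3.47, led by the kinase gene Mapk14 in replicate 1 (17.2 and 6.09) and by Creb1 in replicate 2 (12.9 and 6.96). Of 20 fuel and heat genes 16 had one, with medians of 4.88 and 2.93, led by Acsl1 (13.3 and 5.40), with Pnpla2 (9.93 and 4.35) second in replicate 1 and Lipe (8.82 and 4.78) in replicate 2, and Ckmt2, Fgf21 and Bmp8b had none. The median CpG decile was 7, 8 and 6 in these 3 lists and 4.5 in the thermogenic genes. A shared promoter peak was found at 63.6% of all protein-coding genes, and at 93.8%, 96.4% and 88.1% of those in deciles 7, 8 and 6. Genes of deciles 6 to 10 with a promoter peak had medians of 6.85 and 3.48. Read at the median decile only, the counts of the 3 lists lie near these shares, and no sum over the genes' own deciles is given for them. Within deciles 1 to 5, 3 of 4 regulators, 2 of 2 signalling genes and 7 of 9 fuel and heat genes were open. Over all genes of those deciles it was 3547 of 10969.

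General adipocyte genes were open in part. A shared promoter peak was found at 10 of 14, against 63.6% of all protein-coding genes. The medians over those with a peak in each replicate were 1.95 and 1.63, near those of the thermogenic genes. The median CpG decile was 3. Within deciles 1 to 5, 8 of 10 adipocyte genes and 7 of 7 thermogenic genes were open, against 3547 of 10969 of all genes. The transcription factor gene Cebpa (11.7 and 6.82) and Dgat2, an enzyme of triglyceride synthesis (9.46 and 5.89), led. The lipid droplet gene Plin4 had 3.03 and 1.78, the lipase gene Lpl 2.86 and 1.72, the fatty acid binding protein gene Fabp4 2.52 and 1.63 and Plin1 2.39 and 1.81. Lep (1.26 and 0.923), Retn (1.19 and 0.725), Agt (1.95 and 0.688) and Cd36 (1.46 and 0.707) had lower shared peaks. Adipoq had a peak of 1.27 in replicate 1 only, Cfd had none, and Hoxc8 and Hoxc9 had no shared one. The summed promoter height of the adipocyte list was 40.7 in replicate 1 (13 genes with a peak) and 24.2 in replicate 2 (11 genes). Cebpa and Dgat2 were the largest parts of it. That of the thermogenic genes was 29.2 and 17.6 (10 genes in each replicate). Muscle genes share Cox7a1 and Cox8b expression with brown fat. Of the muscle list 3 of 12 were open (Actn3 at 9.14 and 5.32, Mylpf at 8.72 and 3.94, Ckm at 2.56 and 2.54), and Myod1, Myf5 and Acta1 had no promoter peak. Starts of other genes near the peaks of the lists were not looked up. The cortex list had 7 of 10 open, with a summed height of 35.3 (9 genes with a peak) and 16.8 (7 genes). The chromaffin list had 5 of 10 open, with 29.6 (8 genes) and 15.4 (6 genes). These sums cover lists of unlike size and CpG content, so they do not rank the lists. The part of fat cells, or of any other cell type, in the signal at the thermogenic genes was not tested.

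**Figure D5:**
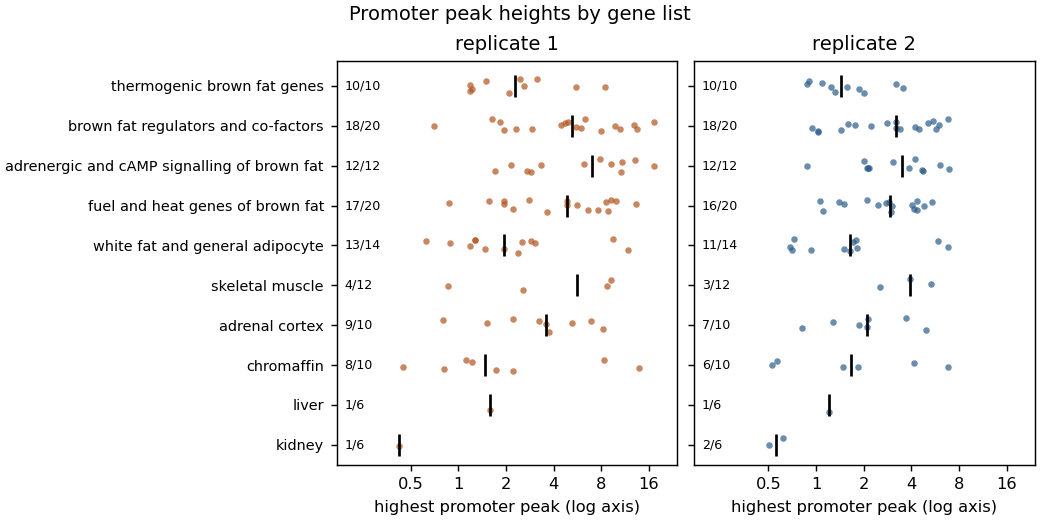
Each point is the highest promoter peak of 1 gene in replicate 1 (left) or replicate 2 (right) on a log axis, black bars are list medians, and the fraction at the left of each row counts genes with a peak. The thermogenic genes (medians 2.26 and 1.44) lie near the general adipocyte genes (1.95 and 1.63) and under the other brown fat lists (4.88 to 7.02 and 2.93 to 3.47).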

How the data were processed

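DNase-seq of 2 adrenal gland samples was analysed. Per the deposited file listing, each list comes from a single sample's mm10 alignments, without pooling. The aligner, peak caller and footprint caller were not given in the sources used here. The peak height is a signal scaled by the authors, on a scale that is not stated. The deposited FDR values are adjusted p-values per stretch of bases, and each footprint carries the same deposited p-value of 0.01. CAST/EiJ reads were mapped to the C57BL/6J genome, so sites that differ between the strains can lose signal. Read depth is unknown here, and no interval for heights beyond the step-based error was made.

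The shorter peak list of each sample (FDR of at most 0.001) was the main list and the longer one an alternative. Overlapping peaks (at least 1 bp) were merged, regions with a peak from each replicate were called shared, and the highest peak per replicate gave the height. Genes and starts came from GENCODE M21. A promoter region lay within 1 kb of any start of the gene, and distal regions more than 1 kb from every start. Sequences came from the mm10 reference (RefSeq GRCm38.p6), and 6 of the 10 genes matched the RefSeq promoter table. The genes and lists were chosen with earlier results of these data known. All 10 genes are named, and of each list up to 4 of the highest and up to 3 closed genes. The other general adipocyte genes named were added after their values were seen. Python 3.11.15 with numpy 2.4.6 and pandas 2.3.3 was used. Region overlap, distances and motif search were tested on simulated data. Other settings varied the peak list, window, start, flank, overlap, height and centring. The sequence of the higher Ebf2 promoter region is not reported here.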

Additional observations from a re-analysis of the deposited data

How the results depend on the processing

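The count of 10 open promoters was the same in the longer lists, at 500 bp and 2 kb, and in each replicate alone. It was 8 with the most 5′ start only and 7 in the 50% highest peaks. The median heights of 2.26 and 1.44 ranged from 1.80 to 2.39 in replicate 1 and from 1.29 to 1.44 in replicate 2 over the settings tried. The median number of distal regions per gene, 2.5, was 5.5 in the longer lists, 4 with 100 kb on each side and 1.5 in the 50% highest peaks, and 3 to 8 with 1 replicate left out. The median centred log2 ratio of the highest promoter regions, 0.03, was 0.76 without centring, -0.072 when centred within deciles of height and -0.083 over all shared regions of the loci, a setting chosen after seeing the data, so its sign is not fixed. Regions with an overlapping footprint made up 90.2% in the shorter lists and 77.1% in the longer ones, for which no share over all shared regions is given. Regions with a motif other than the half-site numbered 13, against 20 in the longer lists and 4 within 75 bp of the peak centre, where less sequence was searched. No paired analysis was possible because there was 1 group. Replicate 2 had fewer peaks, and some sites, such as the upstream element of Ucp1, were in the shorter list of replicate 1 only. The reason was not tested.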
